A study of Mus musculus with 12 samples.

Results

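The genes described here were chosen by symbol, and nearly all encode subunits of mitochondrial respiratory complexes I to IV that the cell nucleus carries. Members were the genes with an Nduf symbol of the a, b, c, s or v series, the genes Sdha to Sdhd, the genes whose symbol starts with Uqcr, and the Cox4 to Cox8 genes with an a, b or c suffix. Cox8b and Cox7a1 were left out by the rule and serve below as genes for comparison. The rule found 58 genes among the 22180 genes that had a probe naming a single symbol, with 33 members in complex I, 4 in complex II, 8 in complex III and 13 in complex IV. Where a gene had several such probes, the brightest was used. Cox4i1 and Cox4i2 were not matched by the pattern, and 9 genes that it matched, among them Cox6c, Ndufs6 and Uqcr10, had only probes naming several symbols and were not used.

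The respiratory chain passes electrons from NADH and succinate to oxygen through complexes in the inner mitochondrial membrane, and the proton gradient built on the way drives ATP synthesis. Complex I takes electrons from NADH, complex II from succinate, complex III hands them to cytochrome c, and complex IV reduces oxygen. Most subunits are encoded in the nucleus and a small catalytic set in mitochondrial DNA. Brown and beige fat cells can also spend the gradient as heat, white fat cells hold comparatively few mitochondria, and hepatocytes are rich in them.

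Expression was measured on mouse gene arrays in liver, inguinal white adipose tissue and epididymal white adipose tissue of male Mgl2-DTR and age-matched male wild-type mice. Mgl2-DTR mice carry a diphtheria toxin receptor under control of Mgl2, a lectin gene of a subset of macrophages and dendritic cells, so toxin removes the cells that express it. Both genotypes are labelled C57BL/6N, and both received diphtheria toxin intraperitoneally at 500 ng per dose every 3 days, with tissue taken on day 10. There was therefore no group without toxin. Each of the 6 groups of tissue and genotype held 2 arrays, and the labels do not say whether the 2 came from separate animals, so a p-value here reflects array-to-array spread, which may be technical. In whole tissue, fewer cells of a type and less RNA per cell cannot be told apart.

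The deposited values were on a log2 scale, with array medians between 5.19 and 5.28 over 41345 probes. Mgl2 lay at 4.25 and 4.19 in Mgl2-DTR epididymal fat, against 7.46 and 7.22 in wild-type epididymal fat. In inguinal fat Mgl2 lay at 4.12 and 4.72 in Mgl2-DTR, against 7.07 and 7.36 in wild-type, while all 4 liver arrays lay between 4.03 and 4.59. In liver the Mgl2 levels of the genotypes differed by 0.07 (SE 0.24), so depletion could not be read from Mgl2 there. Tissue labels fitted their markers: the albumin gene Alb was at 13.55 to 13.68 in liver and at 6.28 to 9.88 in fat, and the adipokine gene Adipoq was at 4.14 to 5.56 in liver and at 10.42 to 11.18 in fat. In 2 inguinal arrays, Mgl2-DTR replicate 1 and wild-type replicate 2, the mean of 14 skeletal muscle genes was 9.66 and 9.88, against 6.58 and 6.59 in the other inguinal array of each genotype. Mgl2-DTR epididymal replicate 2 had a mean of 12.17 for epididymal duct genes, which lay at 3.73 to 4.33 in every other array. Wild-type epididymal replicate 1 had a mean of 10.41 for macrophage genes, against 9.71 in replicate 2.

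Of the 58 members, 52 were tested, the other 6 being too dim in every tissue (mean of no tissue above 5.71, the median over the single-symbol probes). These 6 were Ndufb11 and Ndufs5 of complex I, the pseudogene Uqcrh-ps1, and Cox6b2, Cox7b2 and Cox8c, which encode forms of complex IV subunits known chiefly from testis. Among the 52 tested members, 50 were above that level in all 3 tissues, and Cox6a2 and Cox7c in 2 of them. A gene was called where the limma adjusted p over all 12710 tested genes was under 0.05. Levels of different probes are not compared, since a probe's brightness depends on its sequence.

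The member genes lay lowest in epididymal fat. Averaged over all 58 members, the log2 level was 8.58 and 8.49 in Mgl2-DTR liver and 8.58 and 8.65 in wild-type liver. It was 8.53 and 8.52 in Mgl2-DTR inguinal fat and 8.60 and 8.54 in wild-type inguinal fat. In epididymal fat it was 8.19 and 8.17 in Mgl2-DTR and 8.16 and 8.30 in wild-type. The 4 epididymal arrays lay below all 8 others, and the liver and inguinal ranges overlapped. Member by member, epididymal fat had the lowest group mean for 51 of 58 genes in Mgl2-DTR mice and for 49 of 58 in wild-type mice. The highest mean fell almost evenly to the other tissues, with 30 genes in liver and 27 in inguinal fat in Mgl2-DTR mice, and 33 in liver and 25 in inguinal fat in wild-type mice.

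**Figure D1:**
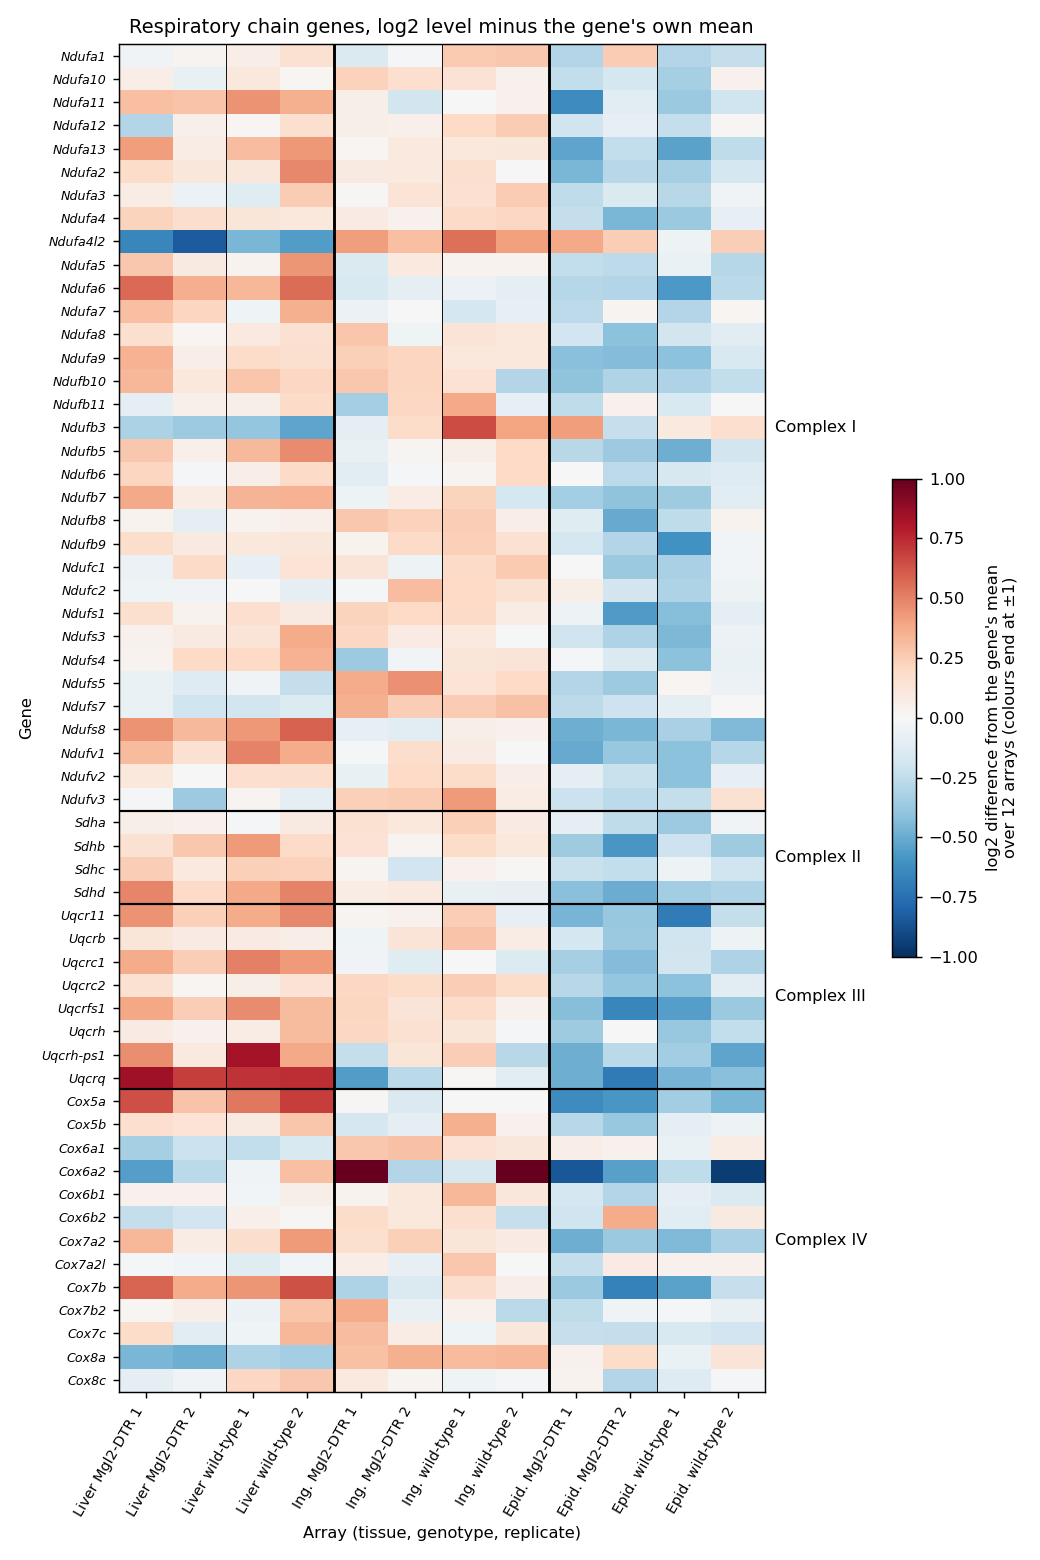
Each cell is the log2 level of a member gene on an array minus that gene's own mean over the 12 arrays, with the 58 genes grouped by complex down the page and the colour scale ending at 1 on either side. Between 40 and 49 members lay above their own mean on a liver array, between 38 and 50 on an inguinal array and between 3 and 11 on an epididymal array.

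In inguinal over epididymal fat, the direction was shared by nearly all members while the single differences were small. In Mgl2-DTR mice 55 of the 58 members, and 49 of the 52 tested, were higher in inguinal fat, where 60.1% of all tested genes were higher. The members' median difference was 0.33 on the log2 scale, and that of all tested genes was 0.07. In wild-type mice 56 of 58 members, and all 52 tested, were higher in inguinal fat, against 46.4% of all tested genes. The median difference there was 0.36 for the members and -0.02 for all tested genes. The genotypes share no array, and 53 of 58 members were higher in inguinal fat in both.

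The arrays of the depots were fully separated for most members. In Mgl2-DTR mice both inguinal arrays lay above both epididymal arrays for 41 of 52 tested members, against 34.7% of all tested genes. In wild-type mice they did so for 47 of 52, against 20.8% of all tested genes. All complexes took part: the median difference in Mgl2-DTR mice was 0.34 for complex I, 0.42 for complex II, 0.36 for complex III and 0.30 for complex IV. In wild-type mice the medians were 0.35 for complex I, 0.31 for complex II, 0.39 for complex III and 0.31 for complex IV. Across the 58 members the differences in the 2 genotypes had a Pearson correlation of 0.55 and a Spearman correlation of 0.27, which describe genes within these arrays, not replicates.

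**Figure D2:**
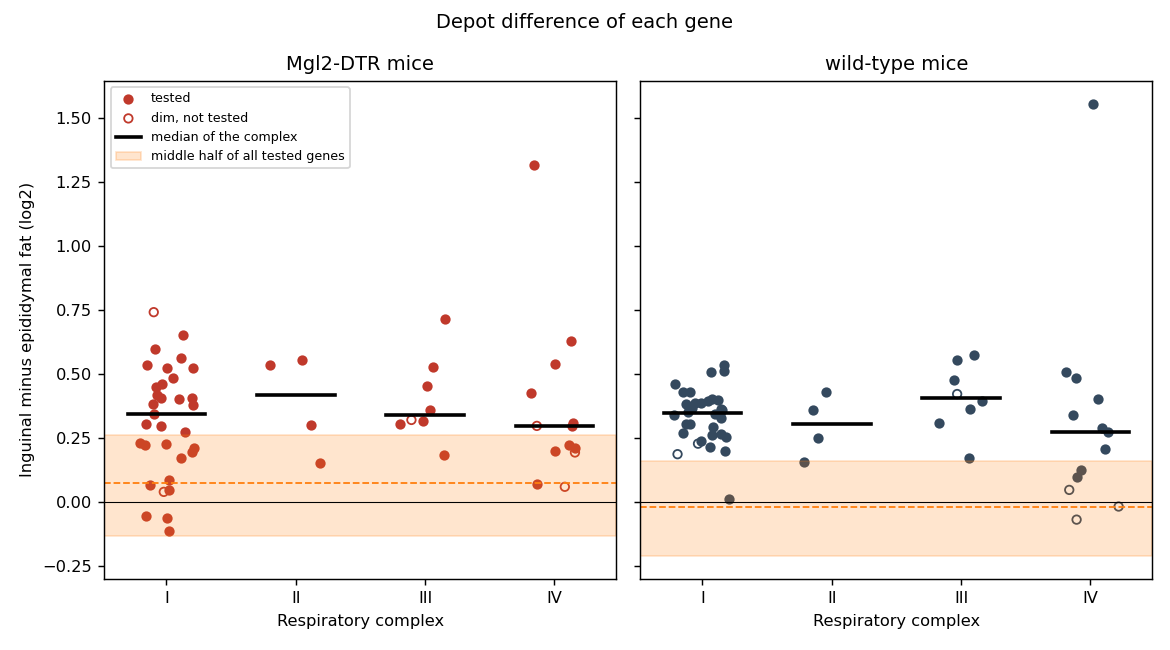
Points are the members' inguinal minus epididymal differences in log2, by complex, in Mgl2-DTR mice on the left and wild-type mice on the right. Filled points are tested genes and open points dim ones, bars are complex medians, and the shaded band is the interquartile range of all tested genes around their dashed median. In wild-type mice all 52 filled points lie above 0, and in Mgl2-DTR mice 49 do.

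A single member passed the test of the depots. Uqcrfs1 encodes the Rieske iron-sulfur protein, which carries electrons within complex III. Its level was 7.53 and 7.45 in Mgl2-DTR inguinal fat, against 6.89 and 6.66 in Mgl2-DTR epididymal fat. In wild-type mice it was 7.50 and 7.35 in inguinal fat, against 6.76 and 6.94 in epididymal fat. The depots did not overlap in either genotype. The difference in Mgl2-DTR mice was 0.71 (SE 0.14, 1.64-fold, adjusted p = 0.0398), so 1 of 52 members was called higher, against 0.897% of all tested genes. In wild-type mice it was 0.57 (SE 0.14, adjusted p = 0.101), and 0 of 52 members were called higher, against 0.834% of all tested genes. Unadjusted p was under 0.05 for 26 of 52 members in Mgl2-DTR mice, against 17.6% of all tested genes, and for 25 of 52 in wild-type mice, against 15.7%.

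The next members in order of p belonged to complexes I, III and IV. Ndufa9, an accessory subunit of complex I, was at 10.03 and 10.01 in Mgl2-DTR inguinal fat, against 9.38 and 9.36 in Mgl2-DTR epididymal fat (difference 0.65, adjusted p = 0.0543). Ndufs7, an iron-sulfur core subunit of complex I, was at 10.55 and 10.44, against 9.93 and 9.99 in the same groups (0.54, adjusted p = 0.0595). Cox7a2, the widely expressed form of a small complex IV subunit, was at 9.30 and 9.38, against 8.65 and 8.77 (0.63, adjusted p = 0.0654). In all 3 the inguinal arrays lay above the epididymal arrays, and none passed. In wild-type mice the smallest p after Uqcrfs1 belonged to Ndufs8, another iron-sulfur core subunit of complex I, at 9.38 and 9.37 in inguinal fat, against 9.005 and 8.89 in epididymal fat (0.43, adjusted p = 0.142). Uqcrc2, a core subunit of complex III, followed with 10.76 and 10.70 in wild-type inguinal fat, against 10.11 and 10.41 in wild-type epididymal fat (0.48, adjusted p = 0.149). Cox7a2 was at 9.26 and 9.22, against 8.69 and 8.81 (0.49, adjusted p = 0.162), again with separated depots and no call.

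Complex II, which is also the succinate dehydrogenase of the tricarboxylic acid cycle, moved with the rest in direction. Sdhb, its iron-sulfur subunit, was at 9.32 and 9.20 in Mgl2-DTR inguinal fat, against 8.82 and 8.59 in Mgl2-DTR epididymal fat (0.55, adjusted p = 0.0943). Sdhd, a membrane anchor, was at 9.91 and 9.93, against 9.42 and 9.34 (0.54, adjusted p = 0.0883). Sdhb and Sdhd did not overlap between the depots, and neither was called.

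The call of Uqcrfs1 rested on the libraries and on the scaling. Its adjusted p was 0.329 without both inguinal arrays high in muscle genes, 0.222 with the muscle gene mean as a covariate, 0.121 without the 2 epididymal arrays that stood apart, and 0.0589 after cyclic loess within each tissue. Leaving out single arrays, the call was kept without wild-type epididymal replicate 1 or 2 or Mgl2-DTR epididymal replicate 1 and lost without each of the other 9, with adjusted p from 0.0619 to 0.232. The number of members called in Mgl2-DTR mice was 5 of 52 (9.62%) without wild-type epididymal replicate 1 or replicate 2, where 4.24% of all tested genes were called. In wild-type mice it was 6 of 52 (11.5%) without wild-type epididymal replicate 2, where the share of all tested genes was nearly the same, at 11.4%. The shared direction was less dependent: without both muscle-high arrays 50 of 52 members in Mgl2-DTR mice and 51 of 52 in wild-type mice were higher in inguinal fat, and without the 2 epididymal arrays that stood apart 48 and 51 were. After cyclic loess 45 of 52 members in Mgl2-DTR and 52 in wild-type mice were higher.

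Cell type markers differed between the depots too. The mean of 14 macrophage genes was 7.98 and 8.77 in Mgl2-DTR inguinal fat, against 9.12 and 8.95 in Mgl2-DTR epididymal fat, while wild-type inguinal fat, at 9.49 and 9.76, overlapped wild-type epididymal fat, at 10.41 and 9.71. The mean of 11 white adipocyte genes was 11.88 and 11.77 in Mgl2-DTR inguinal fat, against 11.68 and 11.36 in Mgl2-DTR epididymal fat, and 11.73 and 11.62 in wild-type inguinal fat, against 11.18 and 11.64 in wild-type epididymal fat. The mean of 8 brown and beige adipocyte genes was 6.47 to 7.24 over the inguinal arrays and 5.74 to 6.01 over the epididymal arrays. Cox8b and Cox7a1 were on this list, so its mean is not independent of chain genes. Cox7a1 was higher in the muscle-high inguinal array of each genotype, so the mean is not independent of muscle content either. Cidea, a lipid droplet gene high in brown and beige fat cells, was at 7.21 and 6.82 in Mgl2-DTR inguinal fat and at 8.72 and 8.43 in wild-type inguinal fat, against 4.71 and 4.71 in Mgl2-DTR and 4.64 and 4.99 in wild-type epididymal fat. Of 8 fibroblast and progenitor genes 1 was called higher in Mgl2-DTR inguinal fat (Pi16, 2.16, adjusted p = 0.00358). In wild-type inguinal fat 3 were called higher (Pi16, 2.26, Col1a1, 1.15, and Col1a2, 0.98). Mgp, of the same list, was lower in inguinal fat in both genotypes (-0.88 in Mgl2-DTR, -0.68 in wild-type). Dpp4 (-0.46) and Cd34 (-0.08) were lower in Mgl2-DTR mice, and neither these nor Mgp were called. In each genotype the list's other genes were higher in inguinal fat. The mean of the 8 genes was 10.09 to 10.59 over the inguinal arrays and 9.64 to 9.92 over the epididymal arrays. Of 7 epithelial genes 1 was called, Krt8, lower in Mgl2-DTR inguinal fat (-1.40, adjusted p = 0.0440). The part of these cell types in the members' depot difference was not tested.

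Complex IV has paired forms for different tissues, and they separated from one another across the arrays. Cox6a2, the form of subunit 6a known from heart and skeletal muscle, was at 7.50 and 5.67 in Mgl2-DTR inguinal fat and at 5.80 and 8.03 in wild-type inguinal fat. The high array of each pair was the one with the high muscle gene mean, and every epididymal and liver array lay between 5.01 and 6.26. Its depot difference of 1.32 in Mgl2-DTR mice and 1.56 in wild-type mice (SE 0.71 each) did not pass (adjusted p = 0.364 and 0.327). Cox6a1, the widely expressed form, was at 12.99 and 13.02 in Mgl2-DTR inguinal fat and at 12.87 and 12.84 in wild-type inguinal fat, with no array apart.

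Outside the rule, Cox7a1 showed the same split as Cox6a2. This heart, muscle and brown fat form of subunit 7a was at 6.36 and 5.78 in Mgl2-DTR inguinal fat and at 5.73 and 6.74 in wild-type inguinal fat, so the higher array was again the muscle-high one. Cox8b, the heart, muscle and brown fat form of subunit 8, differed in this between the genotypes. It was at 8.08 and 7.54 in Mgl2-DTR inguinal fat and at 8.99 and 8.93 in wild-type inguinal fat, against 5.09 and 5.07 in Mgl2-DTR and 5.32 and 5.48 in wild-type epididymal fat. The muscle-high array was the higher one in Mgl2-DTR mice but not in wild-type mice, and both inguinal arrays were far above epididymal fat in each genotype. Cox8b was also lower on both Mgl2-DTR inguinal arrays than on both wild-type inguinal arrays. Its depot difference was 2.73 in Mgl2-DTR mice (SE 0.20, adjusted p = 0.000286) and 3.56 in wild-type mice (adjusted p = 3.69e-05), larger than that of any member. The member Cox8a, the widely expressed form of subunit 8, was at 11.37 and 11.42 in Mgl2-DTR inguinal fat, against 11.12 and 11.25 in Mgl2-DTR epididymal fat, and at 11.38 and 11.40 in wild-type inguinal fat, against 11.01 and 11.20 in wild-type epididymal fat.

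**Figure D3:**
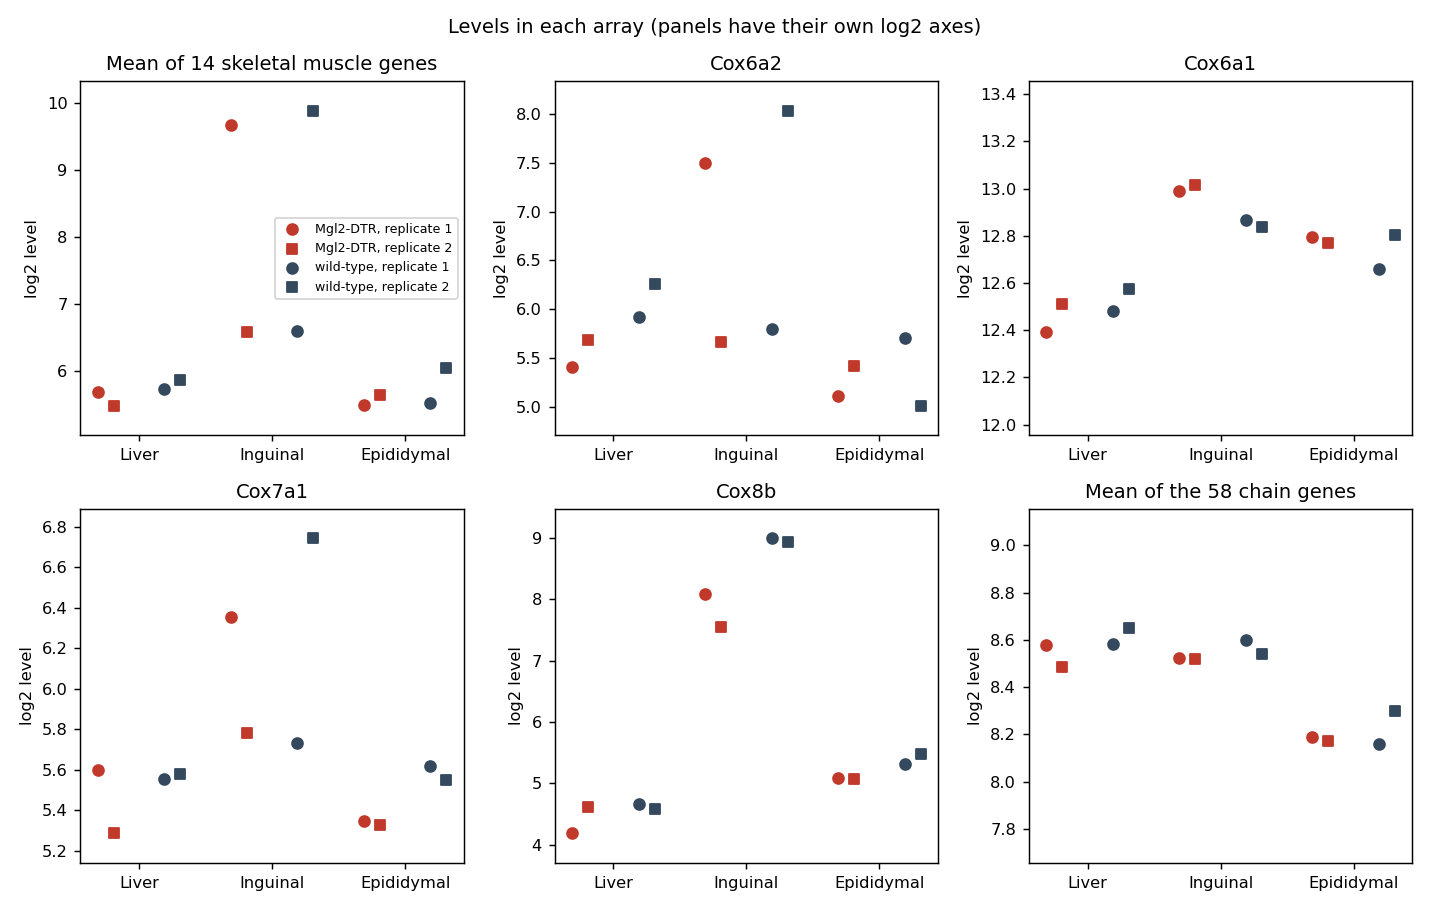
Each panel plots log2 levels by tissue, genotype and replicate for the mean of 14 muscle genes, Cox6a2, Cox6a1, Cox7a1, Cox8b and the mean of the 58 members. Mgl2-DTR inguinal replicate 1 and wild-type inguinal replicate 2 stand out for the muscle genes (9.66 and 9.88) and for Cox6a2 (7.50 and 8.03), while the mean of the members there is 8.53 and 8.54, beside 8.52 and 8.60 in the other inguinal arrays.

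Between liver and fat the members split, with part of each complex higher in liver and a few genes lower. The comparison set liver against the mean of both fat depots within a genotype. For most members this mean lay below inguinal fat, because epididymal fat was low. Liver held the highest group mean for 30 of 58 members in Mgl2-DTR mice and for 33 of 58 in wild-type mice. A call higher in liver therefore does not by itself place liver above inguinal fat. In Mgl2-DTR mice 17 of 52 tested members (32.7%) were called higher in liver, against 19.9% of all tested genes, and 3 (5.77%) were called lower, against 33.7% of all tested genes. In wild-type mice 18 (34.6%) were called higher, against 23.2% of all tested genes, and 4 (7.69%) lower, against 34.0% of all tested genes. The median difference was 0.20 in Mgl2-DTR and 0.22 in wild-type mice, where the medians of all tested genes were -0.15 and -0.13. The genotypes share no array, 16 members were called in both, and across the 58 genes the differences had a Pearson correlation of 0.91 and a Spearman correlation of 0.89.

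Complex III gave the highest median, at 0.50 in Mgl2-DTR and 0.57 in wild-type mice, with 4 of its 7 tested members called higher in each genotype. Uqcrq, a small membrane subunit of this complex, differed most among the members called higher. In Mgl2-DTR mice it was at 7.91 and 7.75 in liver, against 6.50 and 6.79 in inguinal fat and 6.57 and 6.36 in epididymal fat. In wild-type mice it was at 7.79 and 7.80 in liver, against 7.07 and 6.95 in inguinal fat and 6.59 and 6.65 in epididymal fat. All 4 liver arrays lay above all 8 fat arrays. The difference was 1.27 in Mgl2-DTR mice (SE 0.12, 2.42-fold, adjusted p = 2.11e-05) and 0.98 in wild-type mice (SE 0.12, 1.97-fold, adjusted p = 0.000126). Uqcrc1, a core subunit, Uqcr11, a small subunit, and Uqcrfs1 were called higher in liver in both genotypes as well, with differences of 0.50 to 0.54 in Mgl2-DTR mice and of 0.57 to 0.62 in wild-type mice.

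In complex II, 3 of 4 genes were called higher in Mgl2-DTR liver and 2 of 4 in wild-type liver. Sdhd was at 10.33 and 10.03 in Mgl2-DTR liver, against 9.91 and 9.93 in inguinal fat and 9.42 and 9.34 in epididymal fat of that genotype. In wild-type mice Sdhd was at 10.21 and 10.33 in liver, against 9.76 and 9.75 in inguinal and 9.48 and 9.53 in epididymal fat. Liver lay above fat on every array, with inguinal above epididymal fat. The difference was 0.53 in Mgl2-DTR mice (adjusted p = 0.0039) and 0.64 in wild-type mice (adjusted p = 0.00118). Sdhb was called higher in both genotypes (0.40 in Mgl2-DTR, 0.37 in wild-type). Sdhc, the other anchor, differed by 0.33 in Mgl2-DTR mice (adjusted p = 0.0309) and by 0.29 in wild-type mice (adjusted p = 0.0515). Sdha, the catalytic flavoprotein, differed by 0.07 in Mgl2-DTR and 0.06 in wild-type mice and was not called.

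Grouped by symbol, complex I held 7 members higher and 1 lower in Mgl2-DTR liver, and 9 higher and 3 lower in wild-type liver. These counts include Ndufa4l2 among the lower genes and, in Mgl2-DTR liver, Ndufa4 among the higher ones. Ndufs8 was at 9.78 and 9.65 in Mgl2-DTR liver, against 9.25 and 9.23 in inguinal fat and 8.84 and 8.87 in epididymal fat (difference 0.67, SE 0.10, adjusted p = 0.000513). In wild-type mice its difference was 0.68 (adjusted p = 0.000445). Ndufa6, an accessory subunit, was at 9.88 and 9.68 in Mgl2-DTR liver, against 9.17 and 9.23 in inguinal fat and 9.03 and 9.03 in epididymal fat (0.67, adjusted p = 0.00175). Ndufa6 differed by 0.69 in wild-type mice (adjusted p = 0.00136). Both genes were higher on all liver arrays than on all fat arrays. Ndufv1, the subunit that takes electrons from NADH, was higher by 0.42 in Mgl2-DTR and by 0.59 in wild-type liver.

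Ndufa4l2 was the member lowest in liver relative to fat. Its product is a relative of Ndufa4 known to be induced by hypoxia, and Ndufa4 itself, though named for complex I, is now assigned to complex IV, so both were grouped here by symbol only. Ndufa4l2 was at 5.96 and 5.78 in Mgl2-DTR liver, near the 5.71 limit for dim genes, against 7.03 and 6.91 in inguinal fat and 6.99 and 6.86 in epididymal fat. In wild-type mice it was at 6.16 and 6.05 in liver, against 7.17 and 7.02 in inguinal and 6.56 and 6.86 in epididymal fat. No liver array reached a fat array. The difference was -1.07 in Mgl2-DTR mice (SE 0.13, adjusted p = 7.86e-05) and -0.80 in wild-type mice (adjusted p = 0.000529). Ndufa4 was called higher in Mgl2-DTR liver (0.34) and not in wild-type liver (0.13, adjusted p = 0.386).

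The others called lower in complex I were Ndufb3 and Ndufs7, each in wild-type mice. Ndufb3, an accessory subunit of the membrane arm, was at 7.46 and 7.32 in wild-type liver, against 8.50 and 8.24 in inguinal fat and 7.94 and 8.01 in epididymal fat (-0.79, SE 0.18, adjusted p = 0.00471). Mgl2-DTR liver was at 7.53 and 7.48 for Ndufb3, against 7.74 and 8.03 in inguinal and 8.26 and 7.62 in epididymal fat, and this was not called (-0.41, adjusted p = 0.0820). Liver lay below fat on every array in both genotypes. Ndufs7 differed by -0.27 in wild-type mice (adjusted p = 0.0443).

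In complex IV the direction split by subunit, and the median was 0.09 in Mgl2-DTR and 0.04 in wild-type mice. Cox5a, which binds the core of the enzyme on the matrix side, was at 10.13 and 9.77 in Mgl2-DTR liver, against 9.50 and 9.34 in inguinal fat and 8.86 and 8.90 in epididymal fat (0.80, SE 0.13, adjusted p = 0.000612). In wild-type mice Cox5a was at 10.01 and 10.18 in liver, against 9.49 and 9.49 in inguinal and 9.14 and 9.03 in epididymal fat (0.81, adjusted p = 0.000561). The liver arrays were above all fat arrays. Cox7b, a small subunit, differed by 0.85 in Mgl2-DTR and 0.67 in wild-type mice and was called in both. Its dimmer probe, with a mean of 4.87, gave -0.05 in Mgl2-DTR and 0.44 in wild-type mice.

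The widely expressed forms Cox8a and Cox6a1 went the other way. Cox8a was at 10.62 and 10.58 in Mgl2-DTR liver, against 11.37 and 11.42 in inguinal fat and 11.12 and 11.25 in epididymal fat (-0.69, SE 0.11, adjusted p = 0.000458). In wild-type mice Cox8a was at 10.76 and 10.73 in liver, against 11.38 and 11.40 in inguinal and 11.01 and 11.20 in epididymal fat (-0.50, adjusted p = 0.00303). Cox6a1 was at 12.39 and 12.51 in Mgl2-DTR liver, against 12.99 and 13.02 in inguinal and 12.79 and 12.77 in epididymal fat (-0.44, SE 0.10, adjusted p = 0.00548). Its wild-type difference was -0.26 (adjusted p = 0.0519). For both genes the liver arrays lay below all fat arrays of either genotype.

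The number called depended on single liver arrays, the named directions less so. Without Mgl2-DTR liver replicate 1 there were 8 of 52 members called in Mgl2-DTR mice (15.4%, against 42.5% of all tested genes in either direction), all among the 20 above. Without wild-type liver replicate 2 there were 13 in wild-type mice, against 45.8% of all tested genes, all among the 22 above.

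**Figure D4:**
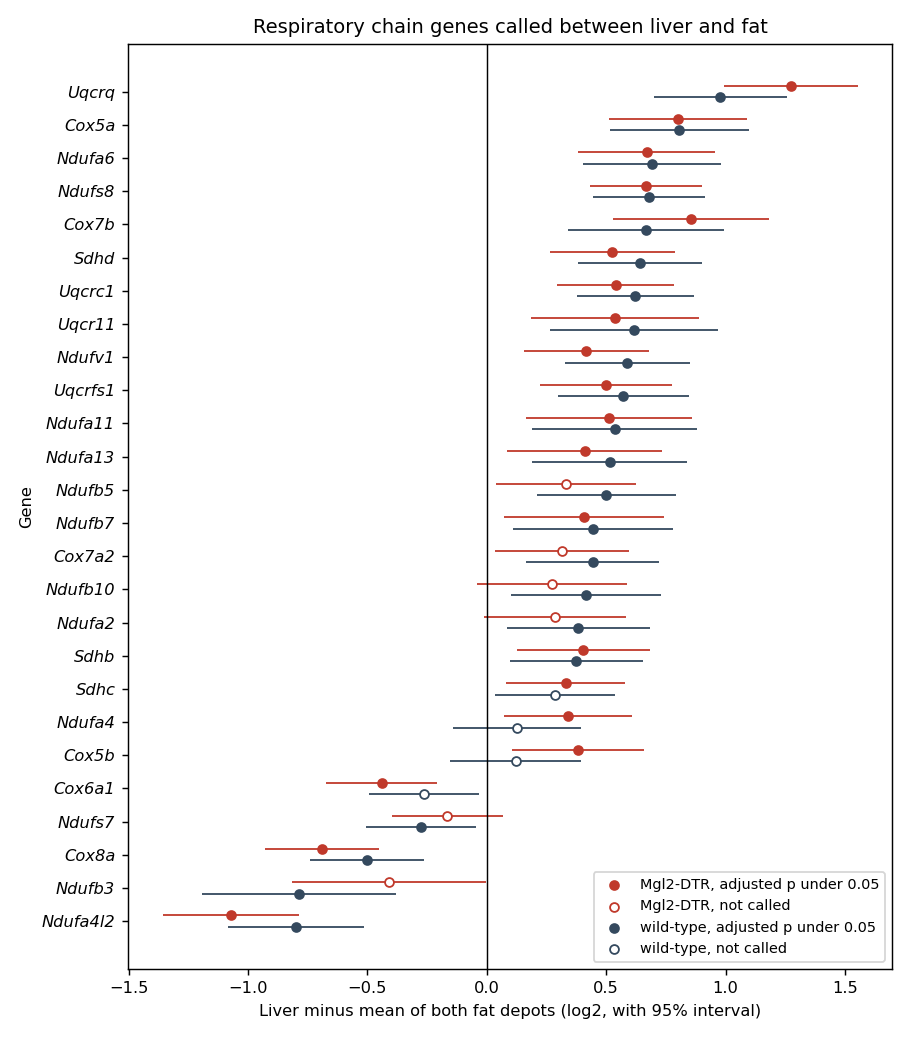
Points are the liver minus mean fat differences in log2 of the 26 members called in either genotype, with 95% intervals, for Mgl2-DTR and wild-type mice. Uqcrq lies highest at 1.27 and 0.98, and Ndufa4l2 lowest at -1.07 and -0.80.

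The promoters of members that differed between tissues are shown because nuclear respiratory genes are known to share sites for the factors NRF1, GABP of the ETS family, YY1 and the estrogen-related receptors. Sequences and start sites are those of RefSeq on GRCm38.p6, whose table held 47 of the 58 members, with 250 bases before to 50 after the start. Each printed stretch runs from 120 bases before to 30 after the start, 5′ to 3′ on the gene's strand. Capitals mark a match, on either strand, to CGCANGCG (NRF1), CCGGAAG (ETS), AAGATGG (YY1) or AAGGTCA (estrogen-related receptors). Uqcrc1 (chr9:108936528-108936677, plus strand), Ndufs8 (chr19:3912745-3912894, minus strand) and Sdhd (chr9:50603820-50603969, minus strand) were higher in liver. Uqcrfs1 (chr13:30545287-30545436, minus strand) was the member called between the depots and was also called higher in liver. Cox8a (chr19:7217587-7217736, minus strand) and Cox6a1 (chr5:115348929-115349078, minus strand) were lower in liver.
Uqcrc1: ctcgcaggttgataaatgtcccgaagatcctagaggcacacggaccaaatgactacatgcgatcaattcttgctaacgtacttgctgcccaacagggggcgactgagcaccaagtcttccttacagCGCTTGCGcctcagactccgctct
Ndufs8: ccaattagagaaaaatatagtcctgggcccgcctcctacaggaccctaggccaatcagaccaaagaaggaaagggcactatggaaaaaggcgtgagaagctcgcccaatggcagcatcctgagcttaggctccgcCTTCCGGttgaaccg
Sdhd: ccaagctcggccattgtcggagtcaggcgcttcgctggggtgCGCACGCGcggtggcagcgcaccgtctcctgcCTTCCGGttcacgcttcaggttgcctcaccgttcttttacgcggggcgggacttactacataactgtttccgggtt
Uqcrfs1: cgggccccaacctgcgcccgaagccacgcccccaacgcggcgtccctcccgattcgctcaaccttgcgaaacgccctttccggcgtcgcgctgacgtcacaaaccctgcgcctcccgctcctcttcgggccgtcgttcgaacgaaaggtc
Cox8a: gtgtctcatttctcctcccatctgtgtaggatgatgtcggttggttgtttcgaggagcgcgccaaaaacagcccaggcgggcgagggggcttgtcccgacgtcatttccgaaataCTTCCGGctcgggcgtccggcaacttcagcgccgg
Cox6a1: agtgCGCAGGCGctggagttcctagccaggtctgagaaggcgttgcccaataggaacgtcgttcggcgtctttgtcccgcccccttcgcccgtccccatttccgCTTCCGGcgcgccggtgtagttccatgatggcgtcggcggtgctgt
Uqcrc1 shows an NRF1 match, Ndufs8 and Cox8a an ETS match, Sdhd and Cox6a1 both kinds, and Uqcrfs1 none, so matches stood in genes higher and in genes lower in liver. The printed genes are a choice: Cox5a and Cox7b, also called higher in liver, held no match in the whole window.

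Over the whole windows, the NRF1 letters were found in 13 of the 47 members with a promoter, against 1792 of 9972 tested genes. The ETS letters were found in 23.4% of the members, against 18.2% of those tested genes. The YY1 letters were found in 14.9% of the members, against 7.96%, and the receptor letters in 4.26%, against 3.96%. The sets are unlike, since the members with a promoter include dim genes that were not tested. Ndufs5, which holds a receptor match, is among these. The NRF1 letters read nearly alike on both strands. In all, 28 of 47 members held at least 1 of the 4. The same share was not counted over the tested genes, so it does not set the members apart. These are matches of letters only, and binding was not measured.

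With depletion, no member passed the test in any tissue, and most lay slightly below wild-type. Of 52 tested members 0 were called in epididymal fat, 0 in inguinal fat and 0 in liver, where the shares called among all tested genes were 0.0315%, 0.197% and 0.0708%. Unadjusted p was under 0.05 for 0 members in epididymal fat, 3 in inguinal fat and 0 in liver, against 6.98%, 6.93% and 5.53% of all tested genes. Members above wild-type numbered 16 of 52 in epididymal fat, 18 in inguinal fat and 14 in liver, against 51.0%, 70.7% and 52.2% of all tested genes. The median difference was -0.07 in epididymal fat, -0.05 in inguinal fat and -0.07 in liver. All tested genes had medians of 0.005, 0.10 and 0.01 in these tissues, so in inguinal fat the median of all genes was above 0 and that of the members below it. The sign of the small medians rested on single arrays: without wild-type epididymal replicate 2 the epididymal median was 0.011, and without Mgl2-DTR liver replicate 2 the liver median was 0.023. In inguinal fat the median was -0.140 after quantile normalization and -0.154 after cyclic loess.

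The arrays of the genotypes overlapped for most members. Both Mgl2-DTR arrays lay below both wild-type arrays for 12 members in epididymal fat (14.7% of all tested genes), 16 in inguinal fat (10.4%) and 10 in liver (15.2%). They lay above for 1 member in epididymal fat (14.8% of all tested genes), 9 in inguinal fat (36.5%) and 3 in liver (19.2%). The complexes differed little in this respect, with medians between -0.12 and -0.02 in every tissue.

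In epididymal fat Cox5b, a zinc-binding complex IV subunit, had the smallest p. It was at 9.56 and 9.46 in Mgl2-DTR, against 9.74 and 9.79 in wild-type (-0.25, SE 0.14, adjusted p = 0.761), while its dimmer probe gave 0.10. Ndufa4l2 was at 6.99 and 6.86 in Mgl2-DTR, against 6.56 and 6.86 in wild-type (0.21, SE 0.15). The genotypes did not overlap for Cox5b, nor, by a margin below the printed precision, for Ndufa4l2. Without the 2 epididymal arrays that stood apart, Ndufa1, an accessory subunit of complex I with a difference of 0.25, stood at -0.051, and its interval spanned 0 in the full fit.

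In inguinal fat the members with unadjusted p under 0.05 were Uqcrq, Ndufb3 and Cox5b, all lower in Mgl2-DTR. Uqcrq was at 6.50 and 6.79 in Mgl2-DTR, against 7.07 and 6.95 in wild-type (-0.36, SE 0.14, adjusted p = 0.683). Ndufb3 was at 7.74 and 8.03, against 8.50 and 8.24 (-0.49, SE 0.21, adjusted p = 0.707). Cox5b was at 9.67 and 9.75, against 10.20 and 9.88 (-0.33, SE 0.14, adjusted p = 0.707), while its dimmer probe gave 0.12. The genotypes did not overlap in any of the 3, and none was called. Ndufb10, an accessory subunit of complex I, was the member highest in Mgl2-DTR, at 7.54 and 7.48, against 7.41 and 6.97 in wild-type (0.32, SE 0.16, adjusted p = 0.757).

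In liver the smallest p belonged to Ndufb5, an accessory subunit of complex I, at 8.49 and 8.27 in Mgl2-DTR, against 8.54 and 8.69 in wild-type (-0.24, SE 0.15). Ndufa4l2 was at 5.96 and 5.78, against 6.16 and 6.05 (-0.23, SE 0.15). Ndufv1 was at 9.38 and 9.21, against 9.55 and 9.43 (-0.20, SE 0.13). The genotypes did not overlap for these 3 genes, and the lowest adjusted p of any member in liver was near 1.

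These intervals show the sizes of change compatible with the array-to-array spread, which may be technical. The median 95% half-width was 0.34 on the log2 scale, or 1.26-fold, and 51 of 52 members had intervals inside 1 log2 unit on either side in every tissue. Cox6a2 was the exception, with an SE of 0.71. Changes within these widths were not detectable with 2 arrays per group. The intervals are for single genes without adjustment, so larger changes could go uncalled too. In inguinal fat the largest difference of a member, 0.49 in size, was not called.

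**Figure D5:**
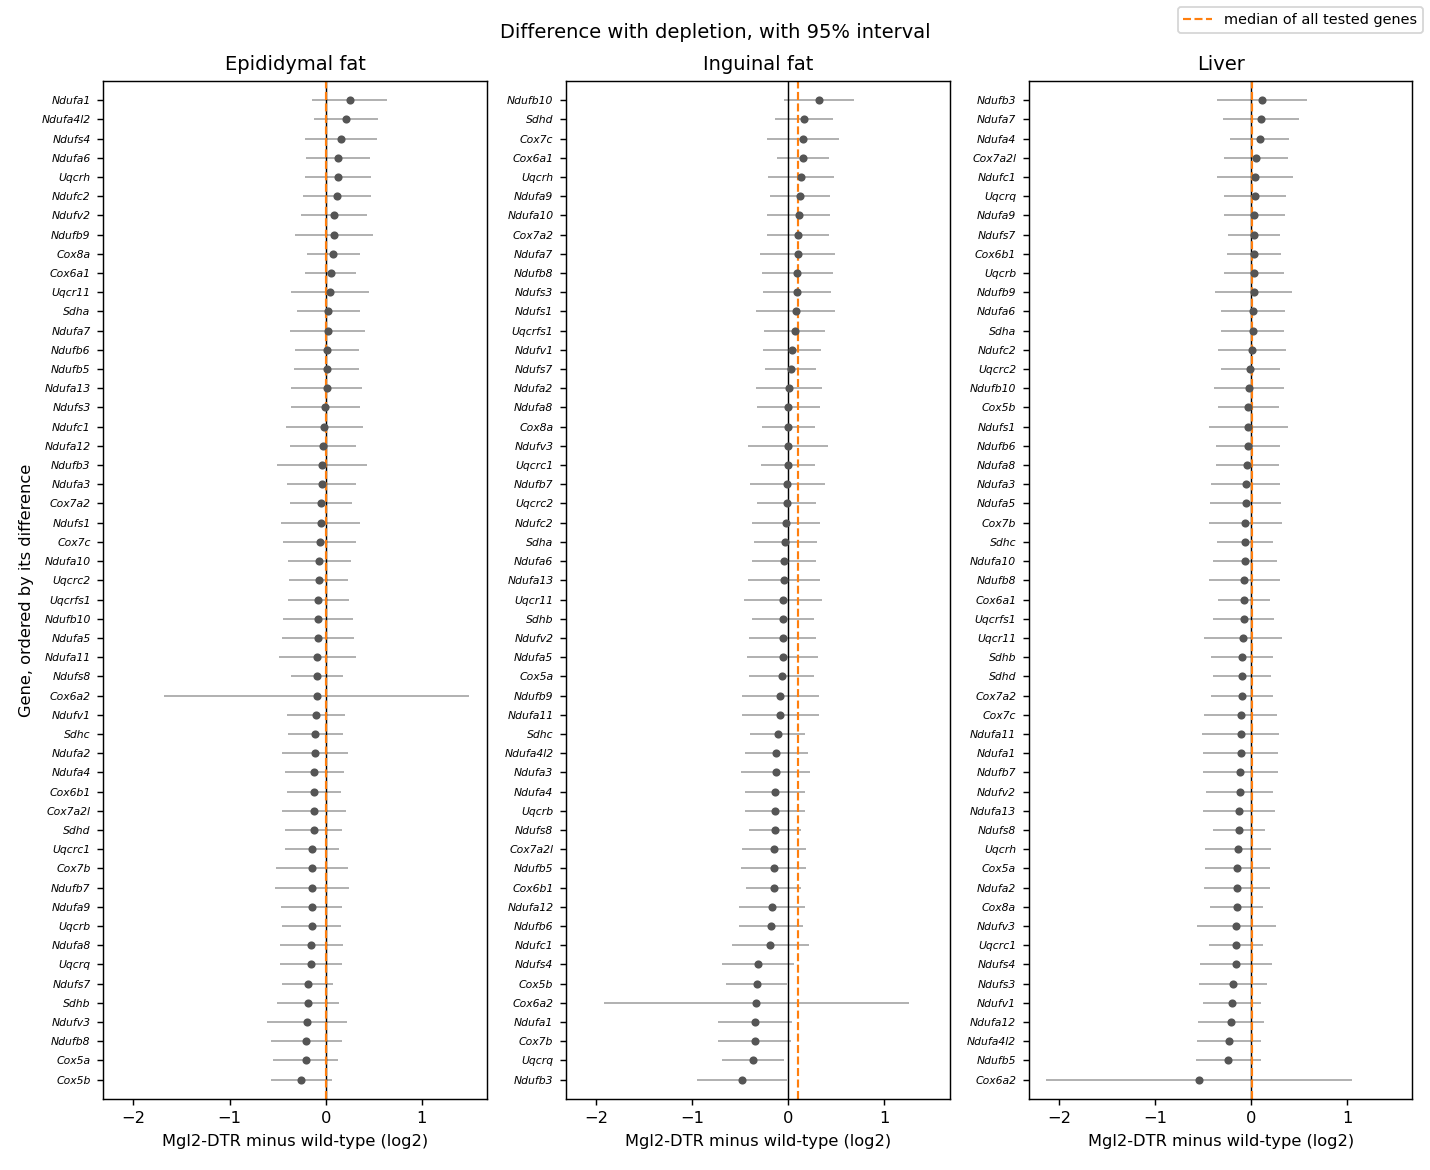
Points are the Mgl2-DTR minus wild-type differences in log2 of the 52 tested members with 95% intervals, in epididymal fat, inguinal fat and liver, ordered within each tissue. Dashed lines mark the medians of all tested genes, 0.005, 0.10 and 0.01. Most points lie left of these lines, and the wide interval is Cox6a2.

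Whether depletion acted differently between tissues was tested directly. Between inguinal and epididymal fat 0 of 52 members differed in their response, against 0% of all tested genes, and the lowest adjusted p was 0.995. Ndufa1 was the member with unadjusted p under 0.05, with a difference of responses of -0.60 (SE 0.24), against 2.86% of all tested genes. Between liver and the mean of both fats 0 members differed, against 0.236% of all tested genes, with a lowest adjusted p of 0.755 and 0 members by unadjusted p under 0.05, against 7.94% of all tested genes.

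Genes around the chain were counted in the same fits. No gene of the assembly factors, the mitochondrial DNA genes, ATP synthase, the tricarboxylic acid cycle, the transcriptional regulators or the mitochondrial ribosome was called with depletion in any tissue. Chain genes outside the rule are not part of this count. Among them Cox8b was lower in Mgl2-DTR than in wild-type inguinal fat, as given above. In inguinal over epididymal fat, 60.1% of all tested genes were higher in Mgl2-DTR mice (median 0.07) and 46.4% in wild-type mice (median -0.02). All 13 tested cycle genes were higher in inguinal fat in each genotype, with medians of 0.49 in Mgl2-DTR and 0.37 in wild-type mice and 0 called. ATP synthase had 14 of 17 tested genes higher in each genotype, and the assembly factors 36 of 40 in Mgl2-DTR and 31 of 40 in wild-type mice, with 0 called in either. The 10 tested mitochondrial DNA genes were all higher, by medians of 0.09 in Mgl2-DTR and 0.12 in wild-type mice, with 0 called. The Mgl2-DTR median lay near that of all tested genes. Of 68 mitochondrial ribosome genes 65 were higher in Mgl2-DTR inguinal fat, with 1 called (Mrpl34, 0.64, adjusted p = 0.0413), and 55 in wild-type inguinal fat, with 0 called.

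In liver over fat the shares called are to be read against 19.9% higher and 33.7% lower of all tested genes in Mgl2-DTR mice, and 23.2% and 34.0% in wild-type mice. Of 40 assembly factors 16 were called higher and 1 lower in Mgl2-DTR mice and 14 and 1 in wild-type mice. The leading gene was Lrpprc, which stabilises mitochondrial messenger RNAs (1.15 in Mgl2-DTR, 1.37 in wild-type), and the lower gene was Cox17, a copper chaperone of complex IV (-0.46 and -0.41). Of 13 cycle genes 3 were higher (23.1%) and 5 lower (38.5%) in Mgl2-DTR mice, and 4 (30.8%) and 5 (38.5%) in wild-type mice, shares near those of all tested genes. Suclg2, the GTP-forming succinyl-CoA ligase subunit, was higher (1.69 and 1.57), while Idh3a, a subunit of NAD-dependent isocitrate dehydrogenase (-1.97 and -1.68), and Cs, citrate synthase (-1.16 and -1.09), were lower. ATP synthase had 6 of 17 higher and 1 lower in Mgl2-DTR and 7 and 1 in wild-type mice, the lower being its inhibitor Atpif1 (-0.62 and -0.95). Of the mitochondrial DNA genes 1 of 10 was called, ND6, higher by 0.41 in Mgl2-DTR and 0.40 in wild-type liver. Among 15 tested regulators, 5 were called higher and 1 lower in Mgl2-DTR and 6 and 1 in wild-type mice. Ppara, a nuclear receptor of fatty acid oxidation, was higher in liver (2.62 and 3.33), as was the coactivator Ppargc1a (0.996 and 0.88), and Nrip1, a corepressor, was lower (-2.52 and -2.27).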

How the data were processed

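RNA was prepared with Trizol, DNase I and RNeasy columns and labelled with the GeneChip WT PLUS kit, per the labels' protocols. The deposited values are on a log2 scale for 41345 probes on 12 arrays. The submitters' processing notes name limma without a version, and, of normalization and background correction, the method is not given in the sources used. Probes were named by the deposited platform annotation: 23521 had a single symbol, 1814 several and 16010 none, and only the first kind was used. The brightest probe stood for a gene. A gene was tested where its mean in any tissue, over 4 arrays, exceeded 5.71. All 12 arrays entered a single limma 3.58.1 fit of 6 group means (R 4.3.3, eBayes without trend), with Benjamini-Hochberg adjustment over 12710 genes. The fit was also run on simulated data, with independent arrays and no tissue differences beyond shifts added to single groups. That run checked the median estimates of the shifts, not error rates. Named members were those called, up to 8 with the largest difference, or the 4 with the smallest p. In other lists at most 3 genes were named in each direction. The members and lists were chosen with earlier results of these data known. Some named members were chosen after their values were seen.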

Additional observations from a re-analysis of the deposited data

Results flagged for a closer look

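With depletion, 5 of the 52 tested members (9.62%) had every Mgl2-DTR array on one side of wild-type in a tissue and every Mgl2-DTR array on the opposite side in another, against 15.2% of all tested genes. Among the 6 dim members, Ndufs5 and Cox8c did so too. Between the depots these were Ndufa9, with -0.143 in epididymal and 0.122 in inguinal fat (difference -0.265), and Sdhd, with -0.125 in epididymal and 0.162 in inguinal fat (difference -0.287). The test of the depots' responses called neither. Between fat and liver they were Ndufa4, with -0.1369 in inguinal fat and 0.087 in liver (difference -0.2238), Ndufb3, with -0.4851 in inguinal fat and 0.1147 in liver (difference -0.5998), and Ndufa4l2, with 0.2128 in epididymal fat and -0.2306 in liver (difference 0.4434). These 3 differences between a single depot and liver were not tested.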

How the results depend on the processing

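No member was called with depletion, or between tissues in its response, under any alternative run. The members' median depletion difference in inguinal fat was -0.140 after quantile normalization and -0.154 after cyclic loess, where the median of all tested genes was 0.027 and 0.003. The median difference of responses between inguinal and epididymal fat was -0.102 after quantile normalization, -0.106 after cyclic loess and 0.068 without both epididymal arrays that stood apart. Inguinal over epididymal fat in wild-type mice had a median of 0.426 after quantile normalization, 0.415 without both muscle-high arrays and 0.237 without both epididymal arrays that stood apart. In Mgl2-DTR mice the median was 0.258 after cyclic loess. Members called there numbered 2 with no filter (1.08% of all genes), 4 with trend and robust eBayes (2.05%), 4 with array weights (2.82%), and 0 after cyclic loess, with the muscle covariate, without both muscle-high arrays, without both epididymal arrays that stood apart, and with the tissues fitted alone (0.37% to 2.39%). Ndufa1 in epididymal fat turned to -0.051 without both epididymal arrays that stood apart and, leaving out single arrays, ranged from -0.024 (without Mgl2-DTR replicate 2) to 0.524 (without Mgl2-DTR replicate 1). Leaving out single arrays, the median depletion difference ranged from -0.144 (without wild-type replicate 1) to 0.011 (without wild-type replicate 2) in epididymal fat, from -0.072 to -0.014 in inguinal fat and from -0.132 to 0.023 in liver (without Mgl2-DTR replicates 1 and 2). The median differences of responses ranged from -0.068 to 0.083 between the depots and from -0.094 to 0.031 between liver and fat. The depot median ranged from 0.291 to 0.370 in Mgl2-DTR and from 0.237 to 0.429 in wild-type mice, with 0 to 5 members called in Mgl2-DTR mice (74 to 539 of all tested genes) and 0 to 6 in wild-type mice (73 to 1445). The liver median ranged from 0.163 to 0.253 in Mgl2-DTR and from 0.152 to 0.265 in wild-type mice, with 8 to 22 members called in Mgl2-DTR (8 without liver replicate 1) and 13 to 24 in wild-type mice (13 without liver replicate 2). The labels do not say whether replicate numbers link arrays, and the correlations of replicate differences between groups ran from -0.121 to 0.121, which leaves it unsettled. With the replicate number as a block, 0 members were called with depletion, the depots gave 1 in Mgl2-DTR and 0 in wild-type mice, and liver over fat gave 19 and 22, so no count of calls moved by over 1.5 times. A crossed pairing in inguinal fat, chosen after seeing the data, gave 0. The counts for liver over fat are to be read beside all tested genes. In the main fit 19.9% of these were called higher and 33.7% lower in Mgl2-DTR mice, and 23.2% and 34.0% in wild-type mice. The causes were not tested. With 2 arrays per group, differences within the spread of replicates could not be resolved.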
